A study of Mus musculus with 20 samples.

Results

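The genes described here make and use small RNAs: the microprocessor pair DROSHA and DGCR8, the export factor XPO5, the dicing enzyme DICER1 with its partner TARBP2, the Argonautes AGO1, AGO2, AGO3 and AGO4, and the silencing scaffold TNRC6A. They were chosen by symbol, ignoring case, in both expression tables, and all 10 were found among 60607 human and 55335 mouse genes listed. Every value is a TPM (a transcript level scaled to a fixed total), which allows for gene length and for the size of the library, so that levels of different genes in 1 liver can be set side by side.

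The 20 livers belonged to 2 sets. The WT set held male C57BL/6 mice, bought at 8 weeks of age and then acclimatized, 6 with an adenovirus carrying an shRNA (short hairpin RNA) against the RNA-binding protein HuR (HuR KD) and 6 with the control virus (LacZ). The humanized set held TK-NOG mice, which lack most immune function and carry a thymidine kinase transgene under the mouse albumin promoter; ganciclovir (25 mg/kg at 8 to 9 weeks of age) removed host hepatocytes, and 1000000 primary human hepatocytes were then placed through the spleen. Of these, 4 received HuR shRNA virus and 4 the LacZ virus, and mice with over 0.5 mg/ml human albumin in serum 8 to 12 weeks after transplantation were used. Virus was given intravenously at 2000000000 pfu per mouse, and livers were collected at day 7 once the mice had fasted for 4 h. Whether the control virus encodes an shRNA is not given in the sources used here, nor is the sex of the TK-NOG mice. The humanized table lists human genes alone, and its values are read here as those of the engrafted human cells. Whether reads of the host liver around them were counted to human genes was not tested.

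MicroRNAs are cut from long nuclear transcripts by DROSHA with its RNA-binding partner DGCR8, carried to the cytoplasm by XPO5, trimmed to short duplexes by DICER1 with TARBP2, and loaded as single strands into an Argonaute. The loaded Argonaute pairs with a message through the seed, bases 2 to 8 of the small RNA, and TNRC6 proteins then recruit the enzymes that shorten its poly(A) tail and remove its cap. AGO2 alone of the mammalian Argonautes is generally held to be an efficient slicer, and a virus-encoded shRNA enters the same route at the export step.

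Some of these mouse messages hold microRNA hairpins or letters that match a microRNA seed, and those sequences are shown because the genes make and use such RNAs. The Dgcr8 message (GRCm38, chromosome 16, 18253948 to 18289246, minus strand) holds 2 microRNA hairpins, 1 in its 5′ UTR at 18284550 to 18284637 and 1 in its coding part at 18284239 to 18284317, and cutting of such hairpins by the microprocessor is a known brake on DGCR8. The mature strands from RefSeq (GRCm38.p6) are given with the seed in capitals, and all 4 seeds differ.
miR-3618-5p: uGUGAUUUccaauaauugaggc
miR-3618-3p: cUACAUUAaugaaaagagcaau
miR-1306-5p: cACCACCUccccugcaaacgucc
miR-1306-3p: aCGUUGGCucugguggugaug
Both hairpins were listed at 0 TPM in 12 of 12 WT livers, while the Dgcr8 gene around them had reads in every liver. They lie in Dgcr8 exons on the same strand. How reads shared by 2 genes were counted is not given in the sources used here, so the 0 does not measure the hairpins.

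Dicer1 (chromosome 12, 104687742 to 104751952, minus strand) is a known target of the let-7 microRNAs, and 9 of 10 let-7 family members in the RefSeq table shared the seed GAGGUAG. The 5p strands of let-7a, let-7b, let-7g and let-7i stand for the family.
let-7a-5p: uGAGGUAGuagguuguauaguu
let-7b-5p: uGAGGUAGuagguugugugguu
let-7g-5p: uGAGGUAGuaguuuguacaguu
let-7i-5p: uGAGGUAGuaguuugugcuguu
Its longest coding transcript (9851 bases in GENCODE) held the matching letters CTACCTC at 4 places of the message strand, all in the coding part of 5721 bases, with 0 in the 3′ UTR of 3851 bases. A match of this kind is a description of the letters and not a shown binding site. Coding parts with at least 1 such match made up 14.1% of 11224 protein-coding genes tested in WT livers, and 6 of those genes, or 0.0535%, held 4 or more; the median coding part was 1350 bases long. The 4 stretches of 30 bases are given on the message strand with the match in capitals, and the first crosses an exon junction.
Dicer1 12:104706364-104706577: cctactgtgttCTACCTCttaatgttgtta
Dicer1 12:104702793-104702822: tgtacaaccaaCTACCTCatatcccattca
Dicer1 12:104702685-104702714: cgctaacacatCTACCTCagatggaagccc
Dicer1 12:104694685-104694714: gcgattttggaCTACCTCataaccaagcac
Xpo5 held 2 coding matches, Ago3 held 1 in its coding part and 1 in its 3′ UTR, Ago2 held 3 in its 3′ UTR of 11064 bases, and Tarbp2 held 1 in a 3′ UTR of 334 bases. Of all 11177 genes with a 3′ UTR, 10.04% held at least 1 match there.

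HuR binds AU-rich stretches, with the core pentamer ATTTA in DNA letters. Copies on the message strand, overlapping ones included, were counted in the 3′ UTR of the longest coding transcript of each gene. The pentamer was present in 7 of 10 members and in 68.7% of all genes with a 3′ UTR. Dicer1 had 11 copies or 2.86 per kb, the highest density of the 10; Ago3 had 24 copies (1.88 per kb), Ago2 had 20 (1.81) and Tnrc6a had 4 (1.71). These 4 lay above the median of all genes, 1.31 per kb. Ago4 (0.815 per kb), Xpo5 (0.754) and Ago1 (0.668) lay below it, and Drosha, Dgcr8 and Tarbp2 had 0 copies. The densest stretches of Dicer1, Ago2 and Ago3 are given with the pentamers in capitals.
Dicer1 12:104690316-104690345: taatacctcttaATTTAcATTTAaaaatgc
Ago2 15:73106222-73106251: attttgataaaaATTTATTTAaaaagagaa
Ago3 4:126335624-126335653: ttcctctttcatATTTATTTATTTAaagtt

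The mouse genes lie on 6 chromosomes. Ago3 (126331704 to 126429556), Ago1 (126435012 to 126468583) and Ago4 (126489541 to 126533472) stand in a row on the minus strand of chromosome 4. Ago2 (73095844 to 73184935, minus), Drosha (12824815 to 12935291, plus) and Tarbp2 (102518192 to 102523676, plus) are on chromosome 15, Xpo5 (46202782 to 46243598, plus) on chromosome 17 and Tnrc6a (123123885 to 123195296, plus) on chromosome 7. Exons of Ago2 and Dgcr8 overlap genes on the other strand (Chrac1 and Trmt2a); the libraries are strand-specific, and how strand entered the counting is not given in the sources used here. RefSeq promoter windows (250 bases before to 50 after the start) were held for 9 members, all but Ago2. On either strand, the GC box GGGCGG was in 7 of 9 against 35.7% of 32851 mouse promoters, CCAAT in 5 of 9 against 37.4%, the ETS-type CCGGAAG in 2 of 9 against 8.86%, and TATAAA in 0 of 9 against 13.6%. The Dicer1 window, of the only member called in both sets below, held 49 CG pairs against a median of 7 and is given with GGGCGG and CCAAT in capitals.
Dicer1 promoter 12:104751903-104752202, minus strand: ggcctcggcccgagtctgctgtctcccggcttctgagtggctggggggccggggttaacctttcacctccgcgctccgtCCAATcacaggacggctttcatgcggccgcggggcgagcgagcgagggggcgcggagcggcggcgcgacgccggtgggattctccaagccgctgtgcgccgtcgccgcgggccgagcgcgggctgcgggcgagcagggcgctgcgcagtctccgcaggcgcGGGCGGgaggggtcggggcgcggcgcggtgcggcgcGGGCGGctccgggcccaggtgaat

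Depth differed widely. Whole reads recovered from the TPM steps came to 2670469 to 20302454 per humanized liver and to 1423985 to 44668272 per WT liver, where LacZ 2 was the lowest and the other 11 had at least 12960373. In the humanized set, HuR KD 4 and LacZ 2 stood apart: they were the 2 deepest, mitochondrial ribosomal RNA took 49.1% of TPM in each against 27.2% to 36.05% in the other 6, and their log2(TPM + 1) values correlated at 0.965, against 0.866 to 0.931 for every other pair of livers. HuR itself, encoded by ELAVL1, was 4.05, 2.37, 3.54 and 3.90 TPM with knockdown and 5.76, 4.77, 6.17 and 5.99 TPM with LacZ in the humanized livers, and 3.72 to 5.62 (median 4.97) against 8.58 to 10.7 (median 9.49) TPM in the WT livers. The groups did not overlap in either set, and the knockdown level was 61.0% of LacZ (limma adjusted p = 0.214) in humanized livers and 51.7% (adjusted p = 0.00105) in WT livers.

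Hepatocyte markers were high throughout, with 8 of 8 listed genes detected in humanized livers and ALB leading at a mean of 49713 TPM. Most immune and endothelial cell markers were faint in the human table. B cell and endothelial markers summed to at most 0.424 and 0.865 TPM in any liver. CD14 (mean 67.2 TPM) was the only macrophage marker above 1 TPM, with 3 of the 8 at 0 in all livers. T and NK cell markers summed to at most 4.89 TPM in any liver, with CD4 at a mean of 1.33. Stellate cell markers summed to at most 5.28 TPM, with PDGFRB at a mean of 2.25. The means of CD4 and PDGFRB lie within the range of the members. Cholangiocyte markers summed to 5.26 to 29.4 TPM with knockdown and 11.5 to 44.4 with LacZ, and their highest, EPCAM, was above most of the members. All 4 tested were lower with knockdown, and 2 were called. EPCAM was 6.47 ± 6.07 against 13.3 ± 5.23 TPM (-1.17, SE 0.51). SPP1 was 0.872 ± 1.15 against 6.01 ± 5.67 TPM (-1.61, SE 0.67), and KRT19 was near 0 in both groups. The Argonautes had log2 differences of -0.39 to -0.06 there, and none was called. WT livers, which are whole tissue, held macrophage markers at 296 to 514 TPM with knockdown against 418 to 566 with LacZ, and 4 of 8 (Cd68, Clec4f, Adgre1 and Cd5l) were lower at p under 0.05 with 0 higher. T and NK cell markers summed to 5.80 to 13.3 against 10.2 to 18.996 TPM, and 1 of 5 tested, Gzma, was called lower (-0.77). Of 6 stellate cell markers Rgs5 (-0.35) and Lrat (-0.32) were called lower, and of 6 endothelial markers Stab2 (0.18) was called higher. In such bulk samples fewer cells of a type and less RNA per cell cannot be told apart, and the part of these other cells in the results was not tested.

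The order of the levels differed between the 2 tables. In humanized LacZ livers DICER1 led at 9.73 ± 1.94 TPM (SD, n = 4), followed by AGO4 at 5.47 ± 0.789, XPO5 at 5.12 ± 1.42, DGCR8 at 4.70 ± 0.473 and TARBP2 at 3.66 ± 0.860, whose spreads run into one another. AGO2 (3.06 ± 0.376), AGO1 (2.81 ± 0.248), DROSHA (2.38 ± 0.316) and AGO3 (2.28 ± 0.118) came next, and TNRC6A was last at 0.276 ± 0.135. In WT LacZ livers Tnrc6a was the highest at 17.0 ± 1.04 TPM (SD, n = 6), with Dicer1 at 13.8 ± 1.89 and Xpo5 at 12.9 ± 0.772 within each other's spread. Ago2 (8.09 ± 0.815) and Ago1 (6.74 ± 0.899) were the next, ahead of Ago3 (5.69 ± 1.11), Drosha (5.07 ± 0.751), Tarbp2 (4.97 ± 0.334) and Dgcr8 (4.95 ± 1.12), which could not be separated, and Ago4 was last at 1.90 ± 0.522. The ratio of Tnrc6a to Dicer1 was 1.25 ± 0.165 in these WT livers and 0.0301 ± 0.0170 in the humanized LacZ livers. TNRC6A rested there on few reads. Of 105 other pathway genes 89 reached a mean of 1 TPM in humanized livers, but CNOT3 (0.149), LSM14A (0.117) and PARN (0.168) were also near 0. Their means in WT livers were 6.62, 7.81 and 9.19 TPM. Whether such low human values come from expression or from alignment and counting was not tested. Species, host, shRNA and read length all change between the sets and cannot be told apart, so levels were not tested across them. The makeup of the TPM total differs as well. Protein-coding genes took 28.9% to 37.8% of TPM in humanized livers and 75.6% to 77.6% in WT livers, where mitochondrial ribosomal RNA was 0.

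Humanized livers are given first, the question being whether these genes changed in human hepatocytes when HuR was lowered. A gene was tested where its mean was at least 1 TPM over the set, by limma with a mean-variance trend on log2(TPM + 1), and called at an unadjusted p under 0.05, the threshold the study used. DICER1 was the only 1 of 9 tested members called, and it rose; 0 members were called lower. Across all 12738 genes 3.60% were called higher, 7.87% lower and 11.5% in either direction, so that 1 of 9 is near the background. After Benjamini-Hochberg adjustment 0.212% of all genes were called and 0 members; at the unadjusted threshold that count was 1, and by limma-voom on recovered reads, also unadjusted, it was 2 (DICER1 and AGO3). The median log2 fold change of the 9 was -0.06, and that of all genes -0.05.

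DICER1, which cuts hairpins to duplexes, was 17.1, 15.7, 19.2 and 11.2 TPM in HuR KD livers 1 to 4 and 8.60, 8.61, 9.08 and 12.6 TPM in LacZ livers 1 to 4. All 4 knockdown livers lay above the LacZ median of 8.85, and the groups overlapped only through the lowest knockdown liver (number 4) and the highest control (number 4). The mean was 15.8 ± 3.36 against 9.73 ± 1.94 TPM, or 162% of control, a log2 fold change of 0.64 (SE 0.19, limma adjusted p = 0.245). The two-sided exact permutation test over 70 groupings gave p = 0.0571, where 0.0286 is the smallest it can give. These values rest on 253 to 1528 reads per liver. Without the 2 deepest livers the change was 0.73, still called, and with each liver left out in turn it stayed between 0.54 and 0.78, called in 8 of 8.

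TARBP2, the double-stranded RNA-binding partner of DICER1, was not called. It was 7.05, 2.72, 3.96 and 2.54 TPM with knockdown and 4.09, 3.54, 2.51 and 4.497 TPM with LacZ. HuR KD 1 was the highest of all 8 livers, at 45 reads, and the rest were mixed (log2 fold change 0.06, SE 0.28, exact permutation p = 0.829). Its sign turned to -0.19 without HuR KD 1.

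DROSHA, the nuclear RNase III enzyme, was 3.38, 2.06, 2.39 and 2.55 TPM with knockdown against 2.84, 2.28, 2.12 and 2.29 TPM with LacZ. DGCR8, its partner, was 4.12, 3.44, 4.75 and 4.04 TPM against 4.78, 4.10, 5.25 and 4.69 TPM. The groups overlapped for both, with log2 differences of 0.08 (SE 0.18, exact permutation p = 0.543) and -0.17 (SE 0.14, p = 0.143). XPO5, which carries hairpins out of the nucleus, was 4.76, 5.88, 5.01 and 3.72 TPM with knockdown and 4.15, 3.68, 6.63 and 6.00 TPM with LacZ. Its lowest value in each group was that of 1 of the 2 deepest livers, and its difference of -0.05 (SE 0.20, exact permutation p = 0.829) turned to between 0.02 and 0.03 under 3 other scalings of the libraries.

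The Argonautes lay at or below the control level, and none was called by the limma fit. AGO2 was 1.78, 1.498, 2.53 and 2.73 TPM with knockdown and 2.77, 2.83, 3.05 and 3.60 TPM with LacZ. All 4 knockdown livers were below all 4 controls, although the highest knockdown liver and the lowest control are nearly level. Its level was 69.7% of control, a log2 difference of -0.39 (SE 0.19, limma adjusted p = 0.476), and the exact permutation p was 0.0286.

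AGO3 was 1.52, 1.24, 2.02 and 1.45 TPM with knockdown and 2.13, 2.41, 2.25 and 2.32 TPM with LacZ. Here too the groups did not overlap, and the controls were close together. It stood at 68.3% of control, with a log2 difference of -0.37 (SE 0.18, limma adjusted p = 0.493) and an exact permutation p of 0.0286. Groups that do not overlap were found for 2 of 10 members, both lower with knockdown, against 7.16% of all genes tested. The voom fit gave AGO3 a difference of -0.52, which passed the unadjusted threshold, and AGO2 one of -0.34, which did not.

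AGO1 was 2.77, 2.37, 2.28 and 1.79 TPM with knockdown against 2.67, 2.63, 3.17 and 2.78 TPM with LacZ. Of its knockdown livers 3 were below all controls and 1 was among them (log2 difference -0.21, SE 0.16, exact permutation p = 0.0857). AGO4 was 5.10, 4.24, 5.55 and 5.94 TPM against 5.06, 5.61, 6.52 and 4.71 TPM, fully intermixed (-0.06, SE 0.15, exact permutation p = 0.600), and its sign turned under 3 other scalings, to 0.01 in each. TNRC6A, which ties Argonaute to the deadenylases, was listed at 0.494, 0.262, 0.516 and 0.424 TPM with knockdown and 0.178, 0.407, 0.375 and 0.142 TPM with LacZ. These came from 3 to 61 reads per liver and were below the limit for testing.

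**Figure D1:**
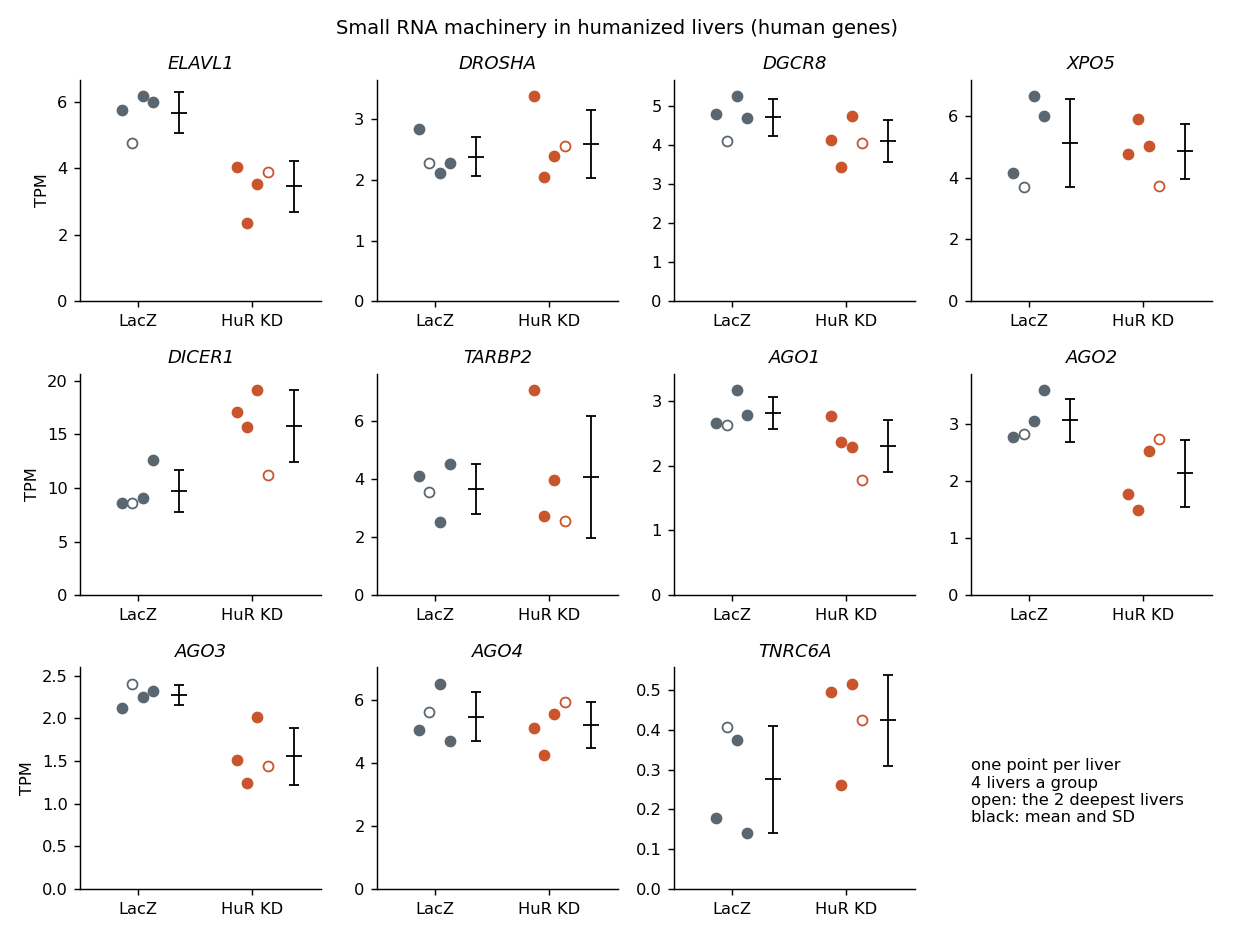
TPM of ELAVL1 and the 10 members in each humanized liver, with LacZ in grey and HuR KD in orange, open points for the 2 deepest livers, and mean and SD in black (4 livers a group). DICER1 is higher in 3 knockdown livers than in any control, and AGO2 and AGO3 are lower in all 4.

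WT livers address the same question in mouse tissue. All 10 members were tested and all 10 had a higher mean with knockdown, in a set where 56.8% of all genes had a log2 fold change above 0. Among the members 6 were called higher and 0 lower. Of all 15090 genes 9.09% were called higher, 6.94% lower and 16.0% in either direction. After adjustment 0.888% of all genes were called and 0 members, against 6 by the unadjusted limma p and 8 by unadjusted limma-voom. The median log2 fold change of the members was 0.19 and that of all genes 0.03. Groups overlapped for all 10 members, while 2.49% of all genes had groups that did not.

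Dicer1 was again called higher. It was 14.8 to 19.2 (median 16.9) TPM in the 6 HuR KD livers and 10.02 to 15.3 (median 14.2) TPM in the 6 LacZ livers. Of the knockdown livers 5 lay above every control and the sixth above the control median. The low end of the controls is LacZ 2, the shallowest liver, with 99 Dicer1 reads where the other 11 had 1323 to 4425. The mean was 16.9 ± 1.65 against 13.8 ± 1.89 TPM, a log2 fold change of 0.28 (SE 0.10, limma adjusted p = 0.178; exact permutation p = 0.00433), and it was 0.20, still called, without LacZ 2. Tarbp2 was 4.97 to 6.57 (median 6.07) TPM with knockdown and 4.47 to 5.39 (median 5.05) TPM with LacZ. It was also called higher, by 0.20 (SE 0.08, limma adjusted p = 0.235), with 4 of 6 knockdown livers above every control. The call was lost without HuR KD 1 or HuR KD 4, at 0.18 each.

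Xpo5 was 13.0 to 15.7 (median 14.9) TPM with knockdown and 11.7 to 13.8 (median 13.0) TPM with LacZ. All 6 knockdown livers were above the control median and 5 above every control. The log2 fold change was 0.18 (SE 0.06, limma adjusted p = 0.179; exact permutation p = 0.0108), and it was called with any liver left out. Drosha was 4.89 to 6.87 (median 5.63) against 3.98 to 6.29 (median 5.13) TPM, and Dgcr8 was 4.49 to 5.92 (median 5.53) against 2.86 to 6.01 (median 5.05) TPM. Both microprocessor genes overlapped widely, at 0.14 (SE 0.10, exact permutation p = 0.160) and 0.12 (SE 0.13, p = 0.515). Dgcr8 depended on LacZ 2, whose 2.86 TPM stood for 13 reads, and its difference was -0.0021 without that liver; that of Drosha was then 0.20 and was called.

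Ago1 was 6.997 to 10.4 (median 7.78) TPM with knockdown and 5.72 to 8.14 (median 6.73) TPM with LacZ. All 6 knockdown livers were above the control median, though only 2 were above every control. It rose by 0.25 (SE 0.10, limma adjusted p = 0.236), and the call was lost without HuR KD 1, HuR KD 6, LacZ 3 or LacZ 5, at 0.19 to 0.23. Ago2 was 7.23 to 12.0 (median 9.68) TPM against 7.01 to 9.40 (median 8.05) TPM. Its rise of 0.23 (SE 0.11, limma adjusted p = 0.307) is the weakest of the 6 calls: of the 12 fits with a liver left out it was kept in 3 (without HuR KD 3, HuR KD 4 or LacZ 1) and lost in the other 9, at 0.17 to 0.24, and the exact permutation p was 0.0584. Ago4, the least abundant member, was 2.14 to 2.60 (median 2.48) TPM against 0.976 to 2.42 (median 2.11) TPM. Its difference of 0.25 (SE 0.13) was not called, its exact permutation p was 0.0152, and it was called with quantile normalization (0.19), protein-coding genes alone (0.28), array weights (0.17), voom (0.27) or without LacZ 4 (0.30). It was 0.15 and not called without LacZ 2: the control at 0.976 TPM was LacZ 2 with 4 reads. Ago3 was 4.73 to 7.29 (median 5.82) TPM against 3.79 to 6.77 (median 5.91) TPM, intermixed, with a difference of 0.07 (SE 0.13, exact permutation p = 0.595) that became -0.02 without LacZ 2.

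Tnrc6a was 17.97 to 21.5 (median 19.1) TPM with knockdown and 15.7 to 18.4 (median 16.9) TPM with LacZ. All 6 knockdown livers were above the control median and 3 above every control. The log2 fold change of 0.17 (SE 0.06, limma adjusted p = 0.207) was called with any liver left out. Leaving out HuR KD 1, which had the highest Drosha, Dicer1, Ago2 and Ago3, took the number of called members from 6 to 3, the calls of Tarbp2, Ago1 and Ago2 being lost. Without LacZ 2 it was 6, with Drosha in place of Ago2.

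**Figure D2:**
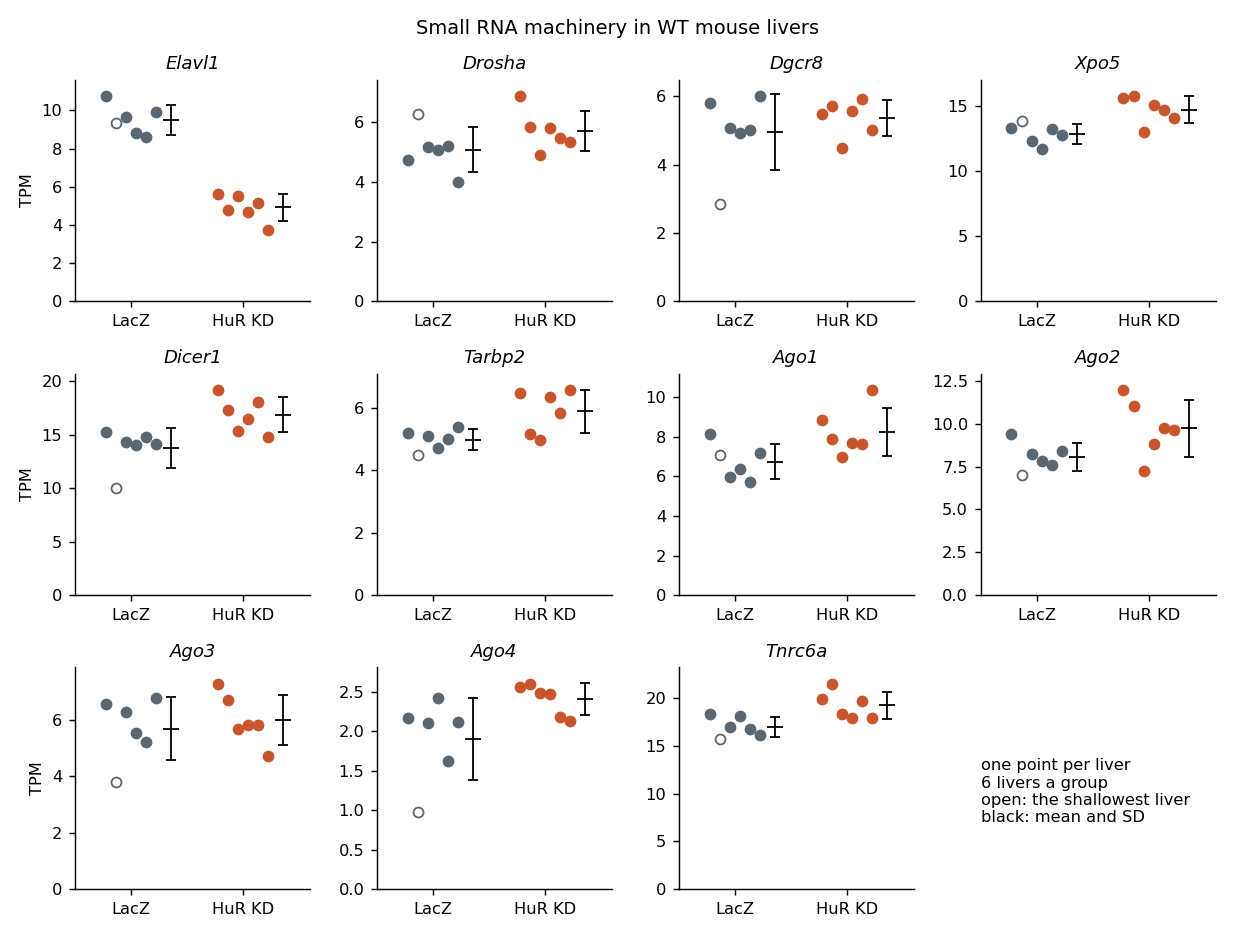
TPM of Elavl1 and the 10 members in each WT liver, with LacZ in grey and HuR KD in orange, an open point for the shallowest liver (LacZ 2), and mean and SD in black (6 livers a group). Dicer1 and Xpo5 are above every control in 5 of 6 knockdown livers, and Dgcr8, Dicer1, Tarbp2, Ago2, Ago3, Ago4 and Tnrc6a have their lowest control value in LacZ 2.

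Whether the 2 sets changed differently was tested directly, as the interaction of set and knockdown in 1 limma fit over 8202 genes paired by symbol. For each gene it assumed the same spread between livers in each set. The SEs within the sets were larger in humanized than in WT livers (AGO2 0.19 against 0.11, AGO3 0.18 against 0.13). What this does to the calls of that fit was not tested. Of 9 members in that fit 3 differed, all Argonautes and all lower in humanized than in WT livers; 19.7% of all pairs differed in either direction. The whole fit leaned the same way, with a median difference of -0.09 over all pairs and 38.1% of them above 0. The median was -0.008 with median-of-ratios factors, under which AGO1, AGO2 and AGO3 were still called. AGO2 differed the most, at -0.62 on the log2 scale (SE 0.19, limma adjusted p = 0.0551), from its -0.39 in humanized and 0.23 in WT livers. AGO1 differed by -0.47 (SE 0.16, limma adjusted p = 0.105) and AGO3 by -0.44 (SE 0.19, adjusted p = 0.187). After adjustment 5.01% of pairs and 0 members were called. The AGO1 and AGO2 differences were called in 20 of 20 fits that left out 1 liver, and that of AGO3 in 18, being lost without humanized HuR KD 2 (-0.38) or WT HuR KD 1 (-0.39). The AGO3 call was also lost with array weights (-0.39) and with replicate number as a block (-0.44). Without the 2 deepest humanized livers AGO1 (-0.41) and AGO2 (-0.74) were called and AGO3 (-0.40) was not, while DICER1 (0.45) was.

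AGO4 differed by -0.31 (SE 0.19, limma adjusted p = 0.402), DGCR8 by -0.28 (SE 0.19, adjusted p = 0.447), XPO5 by -0.23 (SE 0.18, adjusted p = 0.533), TARBP2 by -0.14 (SE 0.24, adjusted p = 0.809) and DROSHA by -0.07 (SE 0.17, adjusted p = 0.885). None of these was called. DICER1 was the only member with a larger value in humanized livers, by 0.35 (SE 0.20, limma adjusted p = 0.335), and whether it was called depended on the setting. It passed the unadjusted threshold in 6 of 11 alternatives, at 0.44 with median-of-ratios factors, 0.44 with quantile normalization, 0.46 with protein-coding genes alone, 0.42 with array weights, 0.51 by voom and 0.45 without the 2 deepest livers. It also passed in 3 of 20 fits that left out 1 liver, without humanized HuR KD 4 (0.499), humanized LacZ 4 (0.47) or WT LacZ 2 (0.44). The 2 sets share no livers.

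**Figure D3:**
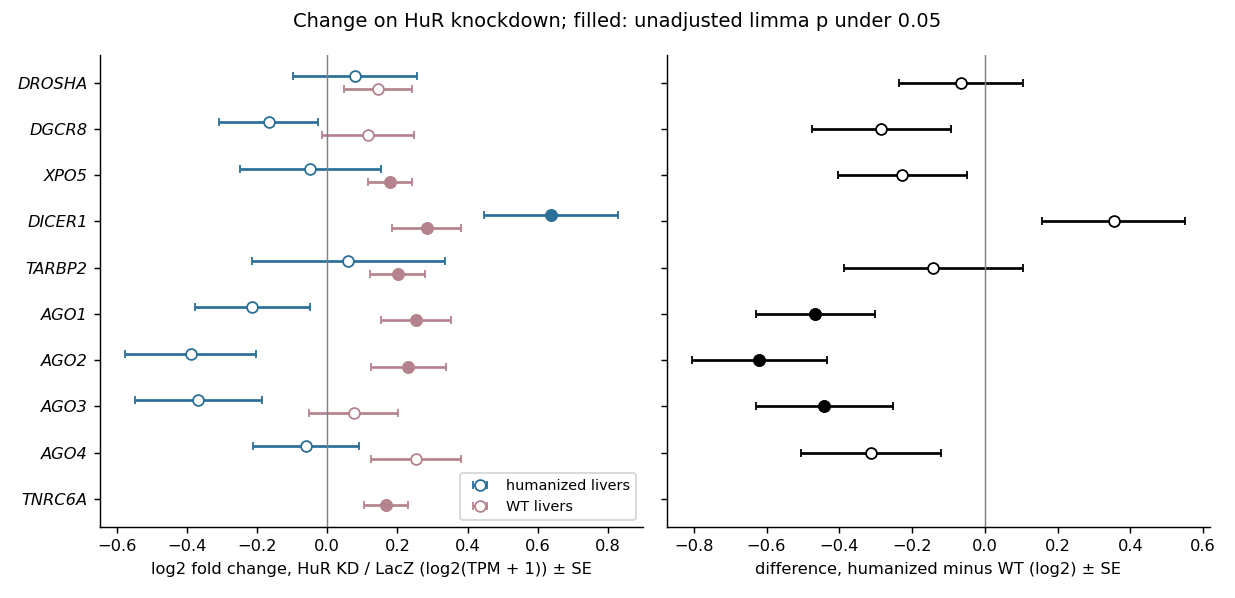
Log2 fold change (HuR KD over LacZ, on log2(TPM + 1)) of each member with its SE in humanized and WT livers on the left, and the difference of the 2 changes with its SE on the right; filled points have an unadjusted limma p under 0.05. DICER1 lies right of 0 in both sets, and AGO1, AGO2 and AGO3 lie left of 0 in humanized and right of 0 in WT livers.

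The makeup of the Argonaute pool is a description without a test. In humanized LacZ livers the 4 genes summed to 13.6 ± 0.989 TPM, of which AGO4 was 40.1% ± 3.58, AGO2 22.5% ± 2.94, AGO1 20.6% ± 0.766 and AGO3 16.8% ± 1.24 (SD, n = 4). With knockdown the sum was 11.2 ± 1.33 TPM and the AGO4 share 46.4% ± 2.34. WT LacZ livers had a sum of 22.4 ± 2.72 TPM with Ago2 at 36.2% ± 1.20, Ago1 at 30.2% ± 3.91, Ago3 at 25.2% ± 2.82 and Ago4 at 8.39% ± 1.89 (SD, n = 6), and knockdown livers a sum of 26.4 ± 2.88 TPM with Ago2 at 36.7% ± 2.68. AGO4 was thus the first of the 4 in every humanized liver and the last in every WT liver. Shares depend on the gene lengths behind the TPM, which are not given in the sources used here. The sums cannot be compared between the sets, because protein-coding genes take a smaller part of TPM in the humanized table.

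**Figure D4:**
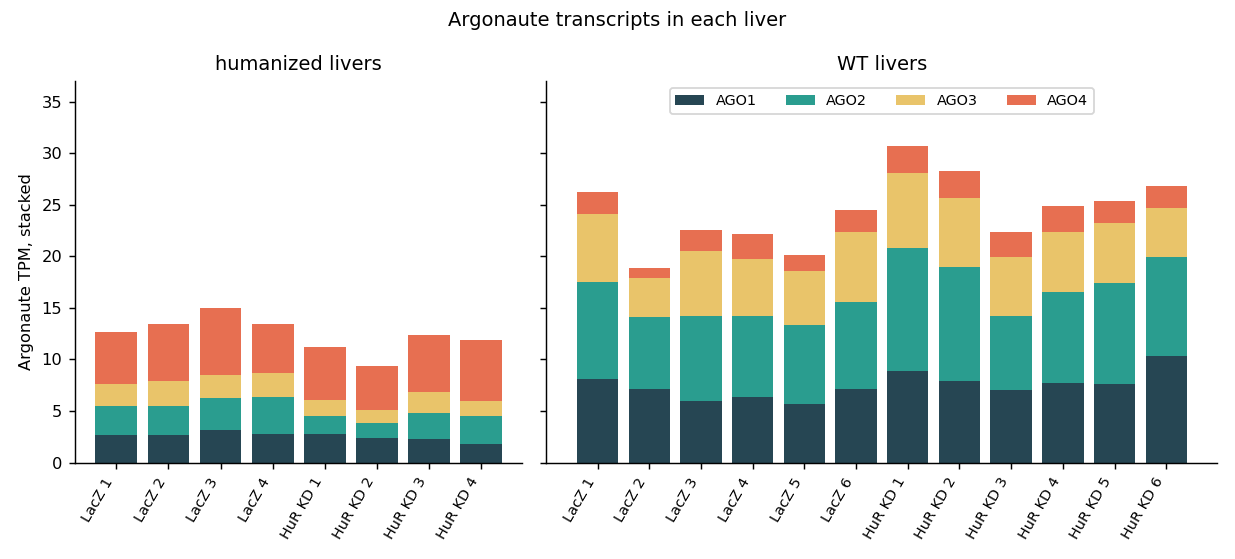
TPM of the 4 Argonaute genes stacked for each humanized (left) and WT (right) liver. The humanized bars reach 9.35 to 15.0 TPM with AGO4 as the largest part. The WT bars reach 18.9 to 30.7 TPM with Ago4 as the smallest part. Protein-coding genes take a smaller part of TPM in the humanized table, so bar heights cannot be compared between the sets.

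Other genes of the pathway were followed as 8 lists with 105 genes, of which 89 were tested in humanized livers. There 2 were called higher and 11 lower, or 13 in either direction, and 0 after adjustment (13 at the unadjusted p, 10 by voom). Thus 13 of 89 is near the 11.5% called over all genes, and the genes named from these lists are given as descriptions. The median change was -0.07, against -0.05 over all genes. Among 12 nuclear processing genes 2 fell and 10 were not called: ADAR, which edits adenosine to inosine in double-stranded RNA, was 20.6 ± 3.31 against 30.4 ± 3.21 TPM (-0.54, SE 0.15, limma adjusted p = 0.196), with groups that did not overlap, and HNRNPA1, which binds some microRNA precursors, was 14.01 ± 2.72 against 18.5 ± 1.86 TPM (-0.39, SE 0.16, adjusted p = 0.401; the call was kept only without HuR KD 3, HuR KD 4 or LacZ 4, over a range of -0.48 to -0.28). None of 5 nuclear export genes and none of 7 loading and RISC partners was called.

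The chaperones that open Argonaute for loading were mixed in humanized livers, with 2 of 12 lower and 1 (DNAJA1) higher. PTGES3, the HSP90 co-chaperone p23, was 24.0, 17.8, 22.2 and 21.2 TPM with knockdown and 40.2, 31.6, 42.3 and 53.4 TPM with LacZ. Every knockdown value lay below every control (-0.93, SE 0.18, limma adjusted p = 0.0835), and the change differed from that in WT livers by -1.003 (adjusted p = 0.00231). For DNAJA1 that difference was 0.89 (adjusted p = 0.0392). Over all pairs 5.01% were called after adjustment. These genes were named for their change in humanized livers or after their value was seen. Their differences between the sets, here and below, are therefore descriptions and not a result about the pathway. HSP90AA1, the inducible HSP90, was 28.0, 25.6, 26.2 and 21.3 TPM against 50.2, 25.9, 52.0 and 66.1 TPM, where the low control is LacZ 2, and it fell by 0.85 on the log2 scale (SE 0.26, adjusted p = 0.251).

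Downstream of Argonaute, 1 of 19 deadenylation genes fell. This was CNOT7, a catalytic subunit of the CCR4-NOT deadenylase, at 5.39, 5.80, 7.81 and 8.41 TPM with knockdown against 11.1, 12.5, 11.4 and 12.2 TPM. The groups were well apart (-0.73, SE 0.16, limma adjusted p = 0.108), and the change differed from that in WT livers by -0.77 (adjusted p = 0.0123). Of 11 decapping and decay genes NBDY, a micropeptide that binds the decapping complex, fell (-0.80, SE 0.31), on 5 to 38 reads per liver. It was called with all livers. With 1 liver left out the call was kept only without HuR KD 2, HuR KD 3 or LacZ 2, over a range of -1.04 to -0.55. Among 9 genes of small RNA tailing and turnover, TUT7, a uridylyl transferase that tails let-7 precursors, was 13.2 ± 2.75 against 20.5 ± 3.88 TPM (-0.60, SE 0.19). The exonuclease XRN2 was 26.3 ± 6.88 against 35.3 ± 2.37 TPM (-0.44, SE 0.18). XRN2 was called with all livers. With 1 liver left out its call was kept only without HuR KD 4 or LacZ 2, over a range of -0.60 to -0.34.

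Of 14 microRNA host transcripts 3 fell and 1 rose in humanized livers. CTDSPL, the host of miR-26a-1, was 5.02, 4.04, 4.005 and 3.84 TPM with knockdown and 10.98, 6.99, 10.5 and 10.7 TPM with LacZ. All controls were above all knockdown livers (-1.03, SE 0.17, limma adjusted p = 0.053), and the change differed from that in WT livers by -1.20 (SE 0.17, adjusted p = 0.000525). PANK1, the host of miR-107, fell in humanized livers (-0.53, SE 0.18). Host transcripts are long messages and do not give the level of the mature microRNA.

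In WT livers 93 of the pathway genes were tested, and 9 were called higher and 4 lower, again 13 in all, with 0 after adjustment (15 by voom). Here 13 of 93 is no more than the 16.0% called over all genes. Their median change was 0.05, against 0.03 over all genes. The deadenylation list held 5 of the calls: 4 of 20 rose and 1 fell. Pabpc1, the poly(A)-binding protein that TNRC6 proteins contact, was 42.0 to 72.4 (median 55.8) TPM with knockdown and 35.3 to 44.5 (median 40.0) TPM with LacZ, with 5 of 6 knockdown livers above every control (0.49, SE 0.11, limma adjusted p = 0.0545). Tob2, an adaptor between poly(A)-binding protein and the deadenylase, was 15.8 to 22.5 (median 18.2) against 20.3 to 29.3 (median 25.8) TPM, with 5 of 6 below every control (-0.41, SE 0.10, adjusted p = 0.0637).

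Of 12 nuclear processing genes in WT livers Erh, a small partner of the microprocessor, rose by 0.26 (SE 0.09) and Adar fell by 0.31 on the log2 scale (SE 0.13), a call lost without HuR KD 3, 5 or 6 or LacZ 1 or 2 over a range of -0.37 to -0.24. Adar was 11.3 to 17.5 (median 14.2) against 15.0 to 22.6 (median 17.0) TPM, and the difference between the sets, -0.24 (SE 0.20, limma adjusted p = 0.551), was not called. Hspa8 was the 1 of 12 chaperones called (0.23, SE 0.09; lost without HuR KD 3, 4 or 6 or LacZ 1, 2 or 4, over a range of 0.18 to 0.29) and Dcp2, the decapping enzyme, the 1 of 13 decapping and decay genes (-0.24, SE 0.09). None of 11 tailing and turnover genes, 5 export genes or 7 loading partners was called. Of 13 host transcripts 3 rose, with Mcm7, which hosts the miR-106b cluster, at 0.26 (SE 0.09) and Ctdsp2, which hosts miR-26a-2, at 0.17 (SE 0.07; lost without HuR KD 2, HuR KD 4 or LacZ 5, over a range of 0.15 to 0.22), and 1 fell.

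**Figure D5:**
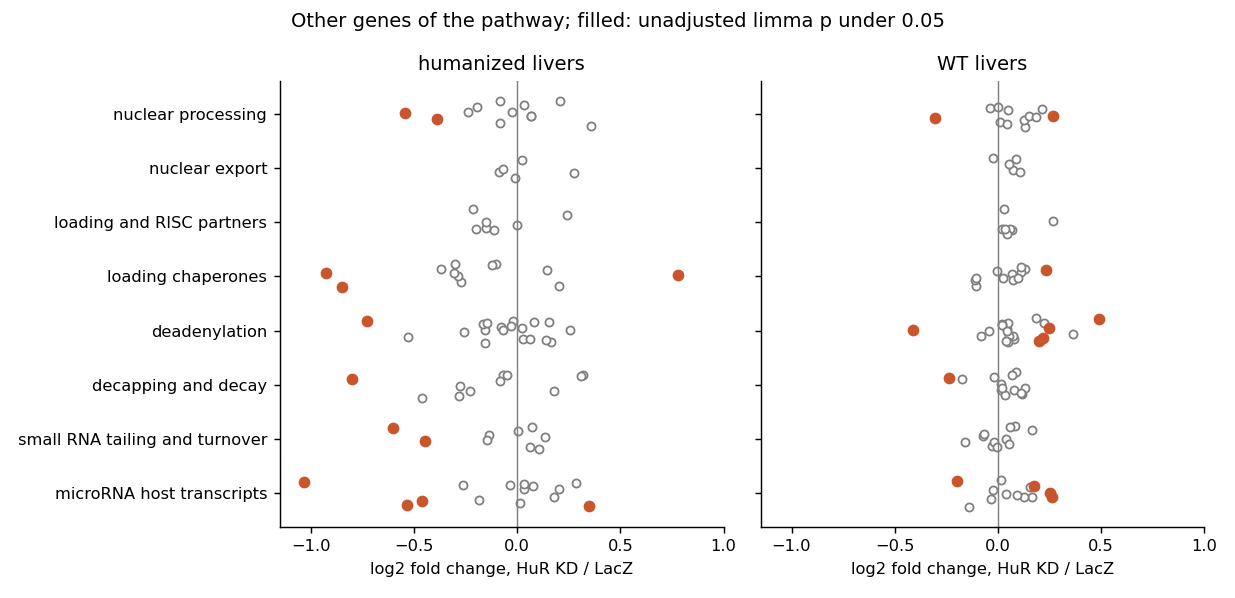
Log2 fold change (HuR KD over LacZ) of each tested pathway gene by list in humanized (left) and WT (right) livers; filled points have an unadjusted limma p under 0.05 and vertical position within a list has no meaning. Of the filled points 11 of 13 lie left of 0 in humanized and 9 of 13 right of 0 in WT livers.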

How the data were processed

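Bulk RNA was sequenced from 20 livers. The authors trimmed reads, aligned them with HISAT2 to the mouse genome, or for humanized livers to a combined human and mouse index, counted them with featureCounts and deposited TPM, 1 column per liver; the submitters' processing notes also name Trim Galore and Subread. Each column adds up to 1000000. The formula and gene lengths behind the TPM are not given in the sources used here.

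Levels were compared within each set by limma 3.58.1 in R 4.3.3 (lmFit, eBayes with trend) on log2(TPM + 1), for genes with a mean of at least 1 TPM. Fold changes on this scale understate those of low genes. Calls used an unadjusted p under 0.05, with Benjamini-Hochberg adjusted p over all genes beside it. The 2 sets were joined by symbol for the interaction. Single members were also compared by two-sided exact permutation over livers (scipy 1.17.1). The labels give no pairing or batch of the livers. All p-values other than those of the block on replicate number treat the livers of a set as independent. Whether they are was not tested, and HuR KD 4 and LacZ 2 of the humanized set correlated at 0.965.

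Reads were recovered as whole numbers (tolerance 0.02, at least 4 libraries with a value) in Python 3.11.15 (pandas 2.3.3, numpy 2.4.6). This step and the fits were checked on made-up data with known answers. In the fits 200 genes were shifted by 1.5 on the log2 scale, more than any member changed. After adjustment 62.5% of them were called in the humanized set and 93.5% in the WT set. The made-up data of the joint fit had the same spread in each set. These checks therefore do not say how often changes as small as those of the members would be called. Read counts set the precision of low TPM, and intervals of reads cover counting error only.

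Sequences came from GENCODE M21 and RefSeq tables on GRCm38, whose identifiers for the mouse members equal those in the table. Human sequences, proteins and the shRNA sequences were not used here. Figures were drawn with matplotlib 3.10.9. The named genes are ELAVL1, all members, and the 2 genes of each pathway list with the smallest p under 0.05 in each set. DNAJA1, CNOT3, LSM14A and PARN were named after their values were seen, as were the cell type markers. Members, lists and tests were chosen with earlier results of these data known.

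Alternatives were a pseudocount of 0.1, other filters (none, or a mean of at least 5 TPM), other scalings (quantile, median-of-ratios), dropping the trend, a block on replicate number, voom on recovered reads, adjusted p-values and each liver left out. Rescaling to protein-coding genes, array weights and leaving out the 2 deepest humanized livers together were chosen after seeing the data.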

Additional observations from a re-analysis of the deposited data

Results flagged for a closer look

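Some members had a liver far from the rest of its group, measured as the gap to its neighbour over the range of the group. In humanized livers the DICER1 level of LacZ 4, 12.6 TPM on 253 reads, was above the other 3 controls (next 9.08 TPM; gap 0.880 of the range, limit 0.829), and without this liver the change was 0.76, again called. In WT livers LacZ 2 was the low one for Dgcr8, 2.86 TPM on 13 reads (next 4.93 TPM; gap 0.656, limit 0.625), and for Dicer1, 10.02 TPM on 99 reads (next 14.04 TPM; gap 0.765). Chance gives such a gap in about 1 of 20 groups. Each group of ELAVL1 and of every member was checked in each set, so these gaps are not set apart from chance. The part of the low depth of LacZ 2 was not tested.

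The change with knockdown differed between humanized and WT livers, by the interaction term at an unadjusted limma p under 0.05, for AGO1 (-0.47), AGO2 (-0.62) and AGO3 (-0.44), with adjusted p of 0.105, 0.0551 and 0.187.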

How the results depend on the processing

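After adjustment 0 members were called in humanized livers, 0 in WT livers and 0 between the sets, and 0 pathway genes in either set. In humanized livers 2 members were called by eBayes without trend and 2 by voom on recovered reads, DICER1 with AGO3 each time, and 1 to 2 with each liver left out, AGO2 being added without HuR KD 4 and AGO3 without HuR KD 3. In WT livers the count with a liver left out was 3 to 6, the lowest without HuR KD 1. Between the sets 0 members were called at a mean of at least 5 TPM, where fewer were tested, and 2 to 4 with a liver left out. Pathway calls with a liver left out were 9 to 19 in humanized and 10 to 17 in WT livers, and 25 in WT livers with array weights; the cause was not tested. Signs turned for values near 0. In humanized livers XPO5 gave 0.024 with median-of-ratios factors, 0.025 with quantile normalization and 0.030 with protein-coding genes alone, and -0.17 to 0.068 with a liver left out (above 0 without HuR KD 4, LacZ 3 or LacZ 4). AGO4 gave 0.0096, 0.0095 and 0.014 under the same scalings and -0.12 to 0.019 with a liver left out (above 0 without HuR KD 2 or LacZ 3). TARBP2 gave -0.10 by voom and -0.19 to 0.21 with a liver left out (below 0 without HuR KD 1 or LacZ 3), and DROSHA -0.021 to 0.15 (below 0 without HuR KD 1). In WT livers Dgcr8 gave -0.0021 to 0.17 and Ago3 -0.018 to 0.13, each below 0 without LacZ 2. Between the sets DROSHA gave 0.0011 with median-of-ratios factors, 0.013 with protein-coding genes alone and -0.16 to 0.0083 with a liver left out (above 0 without humanized HuR KD 2), and TARBP2 gave -0.39 to 0.0048 (above 0 without humanized HuR KD 4). Whether replicate numbers pair the livers is not given in the labels. Correlations of same-numbered deviations were 0.14, -0.22, 0.04 and -0.25 in humanized and -0.14 to 0.21 in WT livers, which cannot decide it with so few livers. With replicate number as a block 1 member was called in humanized livers, 5 in WT livers (Ago2 lost) and 2 between the sets (AGO3 lost), with 9 and 12 pathway genes. Low depth in WT LacZ 2 and in HuR KD 1, 2 and LacZ 4 of the humanized set limits members under 100 reads.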
